A study of Mus musculus with 63 samples.

Results

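The question was which genes respond differently to 6 days in a condition named F4H when the cells start as extended pluripotent stem (EPS) cells and when they start as embryonic stem (ES) cells. The series holds 63 samples of C57BL/6 mouse cells on the zinc finger factor YY1, and gene counts of RNA-seq libraries were read for 22 of them. The comparison uses 8 libraries in 4 groups of 2, chosen by their titles. EPS-shCtrl are EPS cells with a control short hairpin RNA, kept in LCDM medium, and ES-oeCtrl are ES cells with an overexpression control, kept in 2i medium. EPS-shCtrl-F4H-D6 and ES-oeCtrl-F4H-D6 are the controls of each origin on day 6 of F4H, a name that the labels do not expand. Both kinds of stem cell were grown serum-free on Matrigel or on mouse embryonic fibroblast feeders inactivated with mitomycin C, and the labels do not say which library came from which. All 4 groups are controls, and they were fitted in a model of 16 libraries. The cells with less or more Yy1 served there only to filter low counts, scale libraries and estimate the spread.

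EPS cells are a cultured state described as able to give both embryonic and extraembryonic descendants. The 2i medium of ES cells blocks the kinase MEK and the kinase GSK3, so that signalling from fibroblast growth factor (FGF) through MEK to ERK is held down, while LCDM contains no MEK inhibitor. Leaving the naive state normally means that a network of transcription factors, with Esrrb, Klf2, Klf4, Tfcp2l1 and Nanog among them, is shut off while epiblast and then lineage genes come on.

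Libraries held between 14540534 and 19932675 counts on genes, and a gene without a count can reach between 0.151 and 0.206 CPM if its floor is put at 3 counts. CPM are counts scaled by library size, so that libraries of different depth can be compared. That floor covers counting error only. The replicates of the starting cells lay farther apart than those of day 6, with a chi-square per degree of freedom of 19 for EPS-shCtrl and 6.66 for ES-oeCtrl against 2.14 and 2.67 on day 6. The labels do not say where replicates came from and name no batch, so the p-values speak only to how far these libraries lay apart, and that spread may be technical. The deposited table names of the day 6 controls carry no construct. For this reason the gene groups are also counted with untransduced EPS and ES cells (3 libraries each) as the starting cells. In that form the day 6 libraries are the same, so the pair of results shares them. Summed CPM of Y-linked genes also set the libraries apart. It was 6.28 and 8.39 in EPS-shCtrl, 19.4 and 17.6 in EPS-shCtrl-F4H-D6, and 19 to 29.5 in untransduced EPS cells. ES-oeCtrl held 115.5 and 137.8, ES-oeCtrl-F4H-D6 107.5 and 108.9, and untransduced ES cells 69.2 to 82.8. The part of these differences in the results was not tested.

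Of 17207 genes tested, 12755 changed in F4H from EPS cells (74.1%, with 37.5% rising and 36.6% falling) and 12564 from ES cells (73.0%, with 37.1% rising and 35.9% falling). Most moved the same way, since 4582 rose in both and 4174 fell in both. Another 628 rose from EPS and fell from ES cells, and 601 fell from EPS and rose from ES cells. The interaction is the EPS response minus the ES response on the log2 scale, so a positive value means that a gene rose more, or fell less, from EPS cells. A gene was called where its p, adjusted after Benjamini and Hochberg, was under 0.05 in edgeR's quasi-likelihood test, and the interaction was called for 8376 genes (48.7%). Of these 3917 were higher (22.8% of genes tested) and 4459 lower (25.9%), and 4446 (25.8%) were at least 2-fold. Over the 11096 genes of at least 5 CPM on average, the responses had standard deviations of 1.91 (EPS) and 1.99 (ES) on the log2 scale, and the median size of the interaction over all tested genes was 0.72.

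**Figure D1:**
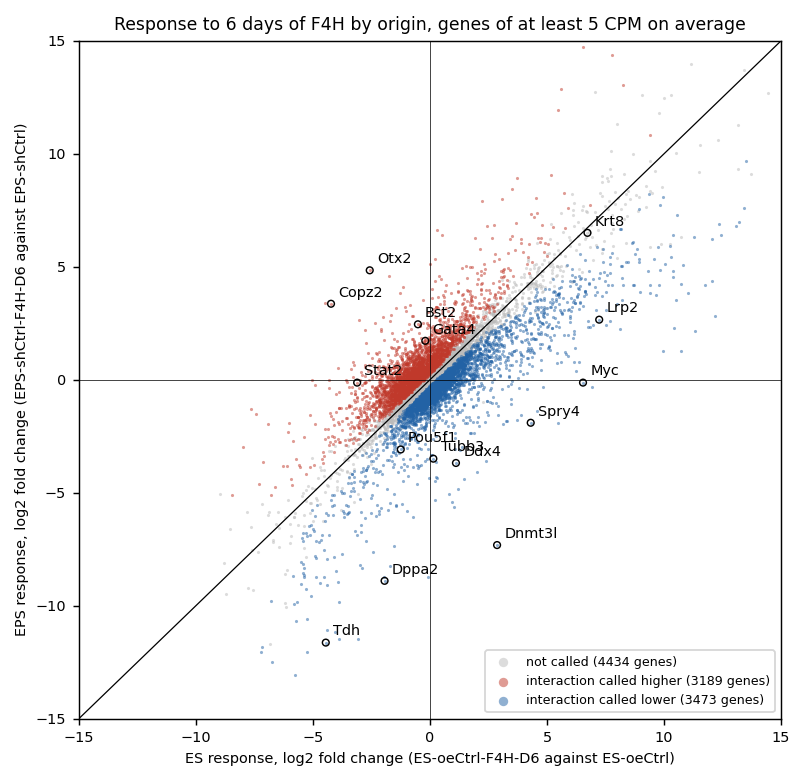
Response to F4H from ES cells (horizontal, log2 fold change) against that from EPS cells (vertical) for the 11096 genes of at least 5 CPM on average, with 1 point per gene, coloured by the interaction call. Points on the diagonal responded alike; Otx2 and Copz2 lie far above it, and Dnmt3l, Dppa2, Spry4 and Myc far below it.

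The same interaction can be read as the EPS to ES difference on day 6 minus that at the start. Across the genes of at least 5 CPM the difference between origins had a standard deviation of 0.99 at the start and 0.76 on day 6. Of the 4446 genes with an interaction of at least 2-fold, 2712 (61.0%) stood closer together on day 6 than before, against 54.6% of all tested genes, and 1734 stood farther apart. With untransduced starting cells 6015 genes were called, with 16.1% of the 17694 genes tested there higher and 17.9% lower. Of the 8376 calls 4208 (50.2%) were made in the same direction, 1909 higher (11.1% of the 17207 genes tested in the main fit) and 2299 lower (13.4%). A further 1074 of the 8376 calls had the opposite sign with untransduced starts, and 193 of these were also called in that opposite direction. The gene groups below are therefore counted both ways. Their counts can be set beside these shares, and beside the 22.8% higher and 25.9% lower of the construct controls. Where a gene is said to rise or fall, the response is against the construct controls unless untransduced starts are named.

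Genes of the naive pluripotency network fell further from EPS than from ES cells. All 19 list members reported here fell in F4H from both origins, by medians of -6.02 and -4.34 on the log2 scale from EPS and ES cells. The interaction was lower for 16 of the 19, with a median of -2.06 against -0.049 over all genes tested. With groups at 0 set to the floor of 3 counts per library the list median was -1.71. With untransduced starts, 15 of the 19 were lower both ways. Summed over the list, day 6 cells held 222 and 228 CPM when derived from EPS and 461 and 452 CPM when derived from ES cells. The sums at the start were 5972 and 5688 CPM in EPS-shCtrl and 6199 and 6558 CPM in ES-oeCtrl. In bulk RNA, fewer cells of a type and less RNA per cell cannot be told apart.

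Dppa2 (chromosome 16, start 48310274, end 48319513, GRCm38.p6), a chromatin factor of pluripotent cells, stood at 165 and 182 CPM in EPS-shCtrl and at 0.336 and 0.374 CPM on day 6. In ES-oeCtrl it stood at 32.8 and 34 CPM, and on day 6 at 7.95 and 9.47 CPM. So the group that started higher ended lower, without overlap at either time (log2 -6.96 ± 0.22, adjusted p = 1.40e-15). Dppa5a, an RNA-binding protein of pluripotent cells, went from 547 and 431 to 1.01 and 0.934 CPM from EPS cells. The ES series went from 666 and 651 to 47.7 and 39.1 CPM, leaving clearly more transcript on day 6 (log2 -5.04 ± 0.22, adjusted p = 5.11e-13). Esrrb, an orphan nuclear receptor of the naive network, stood at 0.528 and 1.59 CPM on day 6 from EPS and 19.9 and 22.6 CPM from ES cells, after starts of 981 and 1094 CPM on average. Its interaction was -4.15 on the log2 scale (adjusted p = 5.02e-10). The differences were smaller for Klf4, a Krüppel-like factor (log2 -2.07 ± 0.12, adjusted p = 2.63e-11), for Zfp42, also known as Rex1 (log2 -2.54 ± 0.15, adjusted p = 3.82e-11), and for Nanog (log2 -0.70 ± 0.12, adjusted p = 3.53e-05). Nanog stood at 11.7 and 12.1 CPM on day 6 from EPS and at 35.2 and 34.8 CPM from ES cells. Tbx3 and Prdm14, also of this list, were not called (log2 -0.013 and 0.62).

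Core pluripotency factors showed the same order, with 7 of 12 lower and 2 higher (6 and 2 with both pairs of starts). Pou5f1, which encodes Oct4, stood at 273 and 275 CPM in EPS-shCtrl and 166 and 159 CPM in ES-oeCtrl. On day 6 it stood at 30.5 and 33.8 CPM from EPS and at 70.3 and 65.8 CPM from ES cells. Against the construct controls the order of the origins had reversed, with no overlap (log2 -1.84 ± 0.11, adjusted p = 2.57e-11). Untransduced EPS and ES cells held 454 and 451 CPM of Pou5f1 on average. With these starts the Pou5f1 interaction was -1.09 on the log2 scale (adjusted p = 4.78e-05). Sox2, its partner, started level, at 385 and 349.8 against 401 and 360.2 CPM, and ended at 13.8 and 12.9 against 38.8 and 37.7 CPM (log2 -1.46 ± 0.12, adjusted p = 2.59e-09). Utf1, a chromatin factor, and L1td1, an RNA-binding protein, also ended lower from EPS cells, at 10.3 and 9.67 against 60.4 and 55.8 CPM for Utf1 (log2 -4.09 ± 0.12, adjusted p = 8.10e-16) and 47 and 53.7 against 191 and 195 CPM for L1td1 (log2 -3.13 ± 0.14, adjusted p = 9.37e-13). Lin28a and Lin28b, which block maturation of let-7 microRNAs, differed mainly at the start. Lin28a averaged 342 CPM in EPS-shCtrl and 25.8 in ES-oeCtrl, then 448 and 374 on day 6 (log2 -3.47 ± 0.36, adjusted p = 3.45e-05). Tdgf1, a Nodal co-receptor, and Sall1, a zinc finger factor, were the 2 members with higher interactions (log2 1.31 and 1.89).

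Formative and primed epiblast genes, which come on after the naive state, were lower in 11 of 18 cases and higher in 3, with 8 and 1 for both pairs of starts. The levels show that EPS cells already held more of some of these transcripts. Pou3f1, the POU factor Oct6, stood at 13.6 and 7.64 CPM in EPS-shCtrl and 2.59 and 3.6 CPM in ES-oeCtrl, and at 37.8 and 36.7 and 65.8 and 71.6 CPM on day 6 (log2 -2.66 ± 0.28, adjusted p = 5.46e-07). Fgf5, a marker of primed epiblast, was near 0 in both starts and reached 36 and 31.9 CPM from EPS and 19.1 and 20.6 CPM from ES cells, without a called interaction (log2 -1.43). Genes of the 2-cell-like state, such as Zscan4c, were called lower in 6 of 8 cases, but 6 of the 8 had an empty group, and only 1 was called with both pairs of starts. Zscan4c averaged 2.69 CPM in EPS-shCtrl and 0.575 CPM in ES-oeCtrl-F4H-D6, with no count in the other groups, and its near copies may share its reads.

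**Figure D2:**
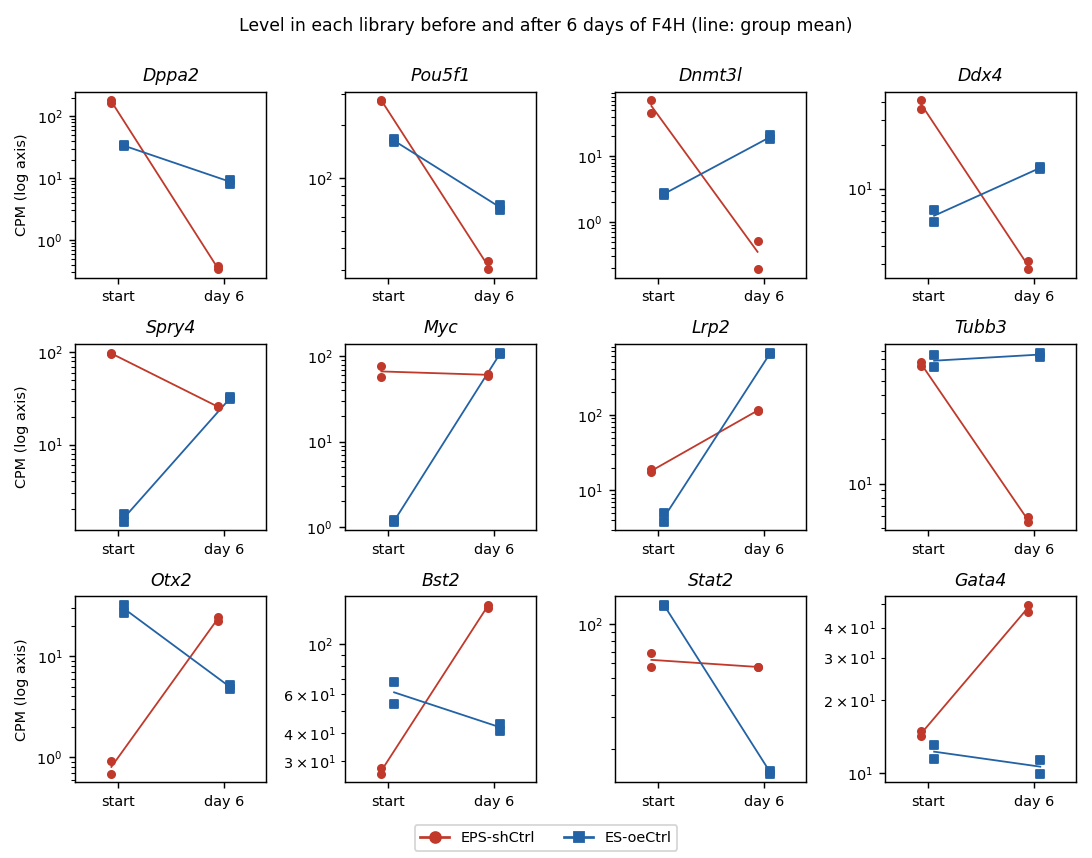
Level of 12 genes in each of the 8 libraries, in CPM on a log axis, at the start and on day 6 of F4H, with circles for EPS-shCtrl, squares for ES-oeCtrl and lines joining the group means. The lines cross for Dppa2, Pou5f1, Dnmt3l, Ddx4, Otx2, Bst2, Stat2 and other genes. For these genes the origin with more transcript changed between the start and day 6 in the 8 libraries shown.

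Genes that answer to ERK signalling were lower in the interaction wherever they were called. Of 21 tested members of the ERK list 13 had a lower and 0 a higher interaction, and all 13 lower calls were also made with untransduced starts. The list median was -1.47 with the construct controls and -0.93 with untransduced starts. Spry4 (chromosome 18, start 38586247, end 38601347), which dampens receptor tyrosine kinase signalling, stood at 94.8 and 99.5 CPM in EPS-shCtrl and 1.47 and 1.76 CPM in ES-oeCtrl. By day 6 it had fallen to 25.8 and 25.9 CPM from EPS and risen to 32.7 and 31.3 CPM from ES cells (log2 -6.21 ± 0.18, adjusted p = 7.50e-16). The origins were far apart at the start and close on day 6 (day 6 difference, log2 -0.31). Myc, a growth-promoting transcription factor, held 57 and 76.5 CPM in EPS-shCtrl and 62.3 and 59.5 CPM on day 6, while in ES cells it went from 1.19 and 1.15 to 111 and 107 CPM (log2 -6.67 ± 0.25, adjusted p = 1.50e-13). With untransduced starts the Myc value was -1.73, still called (adjusted p = 2.03e-06).

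The ERK phosphatases followed the same pattern and some also differed on day 6. Dusp6 averaged 63.5 and 8.28 CPM at the start (EPS and ES) and 143 and 182 CPM on day 6 (log2 -3.29 ± 0.17, adjusted p = 3.77e-12). Dusp4 reached 87.6 and 83.2 CPM from EPS and 335 and 335 CPM from ES cells, a day 6 difference of -1.97 on the log2 scale (adjusted p = 5.31e-11). Fosl1, an AP-1 subunit, was on day 6 at 0.720 and 0.654 CPM from EPS and 10.0 and 9.84 CPM from ES cells (log2 -4.75 ± 0.47, adjusted p = 5.94e-08). Etv4 and Etv5, ETS factors downstream of FGF, fell from EPS cells (log2 -3.08 and -2.63). From ES cells Etv4 rose by 1.07, so its interaction was negative (log2 -4.15 ± 0.12, adjusted p = 7.50e-16). Immediate early genes differed among themselves. Egr1 was lower in the interaction (log2 -1.72 ± 0.28, adjusted p = 1.08e-04) although it stood higher on day 6 from EPS cells, at 255 and 250.5 against 61.7 and 68.8 CPM. Fos, Junb, Ier2, Egr2 and Egr3 were not called. Among FGF ligands and receptors calls were split, with 4 higher and 4 lower of 17 (23.5% each), near the shares over all genes tested (22.8 and 25.9%). Fgf10, a ligand of FGFR2b, went from 3.45 and 2.86 to 26.9 and 25 CPM from EPS and from 24.1 and 30.3 to 12.5 and 14.4 CPM from ES cells, so it rose from the first origin and fell from the other (log2 4.06 ± 0.22, adjusted p = 8.28e-12). Fgf4, the ligand made by the epiblast and itself a naive list member, ended at 1.58 and 1.07 CPM from EPS and 7.84 and 8.57 CPM from ES cells (log2 -1.4 ± 0.28, adjusted p = 4.19e-04).

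**Figure D3:**
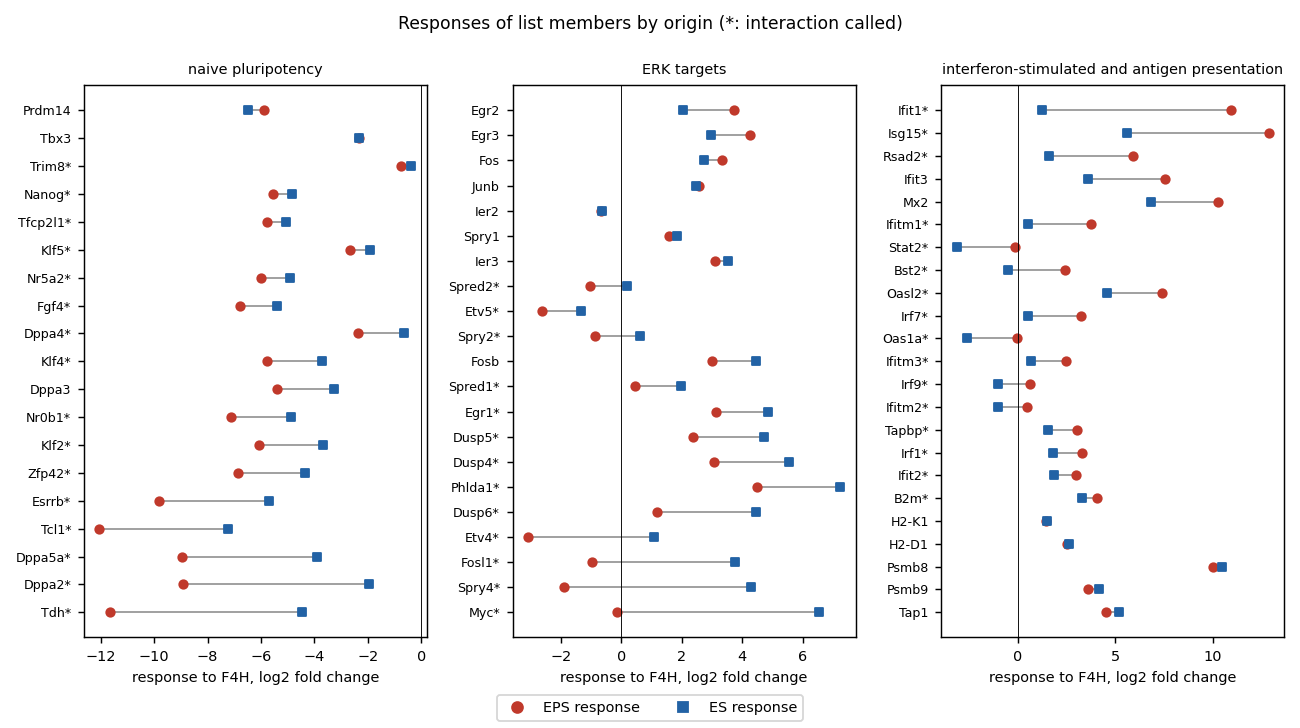
Log2 fold change in F4H from EPS cells (circles) and ES cells (squares) for each tested member of 3 lists, ordered by the interaction, with a star where it was called. In the naive list 16 of 19 members have the EPS circle called to the left of the ES square, in the ERK list 13 of 21, and in the interferon list 16 of 23 have it called to the right.

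Genes of de novo DNA methylation were lower in the interaction. Against the construct controls Dnmt3l and Dnmt3a fell from EPS and rose from ES cells, and Dnmt3b rose from ES cells while its EPS response (log2 -0.40) was not called. Dnmt3l (chromosome 10, start 78042287, end 78063622), the catalytically inactive partner of these enzymes, stood at 44.9 and 71.1 CPM in EPS-shCtrl and 2.59 and 2.78 CPM in ES-oeCtrl. On day 6 it stood at 0.192 and 0.514 CPM from EPS and 18.2 and 21 CPM from ES cells. The groups did not overlap at either time and their order was reversed (log2 -10.18 ± 0.45, adjusted p = 5.32e-10, the lowest value of any gene named by the rule). The value with untransduced starts was -7.4 (adjusted p = 4.32e-09). Dnmt3a and Dnmt3b, the active enzymes, differed mainly at the start. Dnmt3a averaged 230.4 and 13.9 CPM before and 118 and 75.9 CPM on day 6 (log2 -3.41 ± 0.11, adjusted p = 3.43e-15). With untransduced starts Dnmt3a had positive responses from both origins (log2 1.68 from EPS and 2.86 from ES cells), and its interaction was smaller but still called (log2 -1.19, adjusted p = 1.58e-05). Dnmt3b averaged 251 and 40.3 CPM before and 189.7 and 193 CPM on day 6 (log2 -2.66 ± 0.32, adjusted p = 6.71e-05). Dnmt1, which maintains methylation, was not called (log2 0.079), and its partner Uhrf1 was higher (log2 0.72 ± 0.10, adjusted p = 4.12e-06). In the whole list of DNA methylation genes 10 of 18 were lower and 2 higher, with 6 and 1 for both pairs of starts. Tet1, which oxidises methylcytosine, kept its direction with untransduced starts but not its call (log2 -1.55 ± 0.17, adjusted p = 5.26e-07 against log2 -0.52, adjusted p = 0.16).

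Germline genes, a class that promoter DNA methylation is known to keep silent in somatic cells, were lower from EPS cells wherever they were called. That was 13 of 22 tested members, with none higher, and 9 with both pairs of starting cells. The list median was -3.38, or -2.93 with groups at 0 set to the floor of 3 counts per library. Ddx4 (chromosome 13, start 112598333, end 112652633), the germ cell RNA helicase also called Vasa, stood at 41.1 and 35.4 CPM in EPS-shCtrl and 7.13 and 5.83 CPM in ES-oeCtrl. On day 6 it stood at 3.17 and 2.76 CPM from EPS and 14.1 and 13.8 CPM from ES cells. It fell from EPS and rose from ES cells (log2 -4.79 ± 0.24, adjusted p = 1.70e-12). Piwil2, a PIWI protein that binds piRNAs, went from 35.8 and 26 to 0.672 and 0.607 CPM from EPS and from 4.4 and 4.21 to 1.3 and 1.87 CPM from ES cells (log2 -4.13 ± 0.39, adjusted p = 2.79e-08). Mael, which helps to silence transposons, ended at 0.432 and 0.561 CPM from EPS and 1.46 and 1.81 CPM from ES cells (log2 -6.55 ± 0.55, adjusted p = 4.83e-09). Some members reached similar low levels in both, and Dazl, Hormad1 and Sycp3 were not called (log2 -2.08, -0.77 and -1.47).

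2 of these promoters show a sequence that was common in the list. They are given 5′ to 3′ on the gene's strand from 250 bases before to 50 after the RefSeq start (GRCm38.p6), with CACGTG in capitals. Ddx4 lies at chr13:112652261-112652560 (minus strand) and Mael at chr1:166238695-166238994 (minus strand).
Ddx4: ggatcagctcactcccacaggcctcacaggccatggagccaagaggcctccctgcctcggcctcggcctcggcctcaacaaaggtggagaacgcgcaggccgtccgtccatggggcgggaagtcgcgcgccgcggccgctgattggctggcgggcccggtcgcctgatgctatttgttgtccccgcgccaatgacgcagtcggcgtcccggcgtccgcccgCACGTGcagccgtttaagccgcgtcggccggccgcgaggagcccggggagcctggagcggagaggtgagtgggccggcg
Mael: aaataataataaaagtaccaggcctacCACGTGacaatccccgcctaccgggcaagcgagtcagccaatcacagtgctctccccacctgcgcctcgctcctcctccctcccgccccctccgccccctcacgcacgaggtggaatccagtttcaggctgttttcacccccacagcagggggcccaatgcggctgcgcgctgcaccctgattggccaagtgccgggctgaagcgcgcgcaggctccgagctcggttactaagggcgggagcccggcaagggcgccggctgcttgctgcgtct
CACGTG, searched on both strands, was present in 12 of the 20 germline promoters found in the RefSeq table (60%) and in 11.5% of the 11676 promoters of tested genes. Of those 12 genes 9 were lower in the interaction, and of the 8 without it 2 were. Among all genes called lower 13.5% held it, and among all called higher 11%. For comparison, CCAAT stood in 40.1% of promoters of genes called lower, 47.3% of those called higher and 42.4% of all. A match describes letters only.

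Interferon-stimulated and antigen presentation genes went in the other direction. Of 23 tested members 16 were higher in the interaction and 0 lower, with a median of 1.75, or 2.57 with groups at 0 set to the floor. With both pairs of starting cells 11 were higher. The summed level of the list rose from 536 and 426 CPM to 1944 and 2042 CPM from EPS and from 812 and 765 to 1060.0 and 998 CPM from ES cells. Untransduced cells held sums of 1170.0, 1256 and 1172 CPM (EPS) and 1226, 1280.0 and 1206 CPM (ES). These genes are switched on when interferon activates a complex that contains STAT2 and IRF9, and no library was labelled as treated with interferon.

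Bst2 (chromosome 8, start 71534255, end 71537472), the antiviral membrane protein tetherin, stood at 26.2 and 28 CPM in EPS-shCtrl and 67.8 and 54.1 CPM in ES-oeCtrl. On day 6 it stood at 146 and 150.4 CPM from EPS and 43.8 and 41 CPM from ES cells. Against the construct controls the order of the origins was reversed without overlap (log2 2.97 ± 0.15, adjusted p = 2.88e-12). Untransduced cells held 173, 199 and 156 CPM of Bst2 (EPS) and 167, 172 and 136 CPM (ES), which overlap. With these starts the Bst2 responses were -0.29 from EPS and -1.94 from ES cells on the log2 scale. The interaction was smaller but still called (log2 1.66, adjusted p = 1.17e-07). Ifitm1, which restricts virus entry, went from 11.7 and 11.1 to 149 and 160.4 CPM and from 42.2 and 37.1 to 61 and 53.5 CPM (log2 3.23 ± 0.15, adjusted p = 4.94e-13). With untransduced starts the Ifitm1 responses were 0.56 and -0.90, and the interaction was 1.46 (adjusted p = 4.64e-07). Its family members Ifitm2 and Ifitm3 are near copies, so reads may be shared between them. Isg15, a ubiquitin-like protein, had no count in either EPS-shCtrl library and 0.280 and 0 CPM in ES-oeCtrl. It reached 56 and 58.5 CPM from EPS and 7.74 and 6.22 CPM from ES cells. The fitted interaction of 7.29 rests on the groups near 0, and without the first ES-oeCtrl library it was 3.03 and not called. With empty groups at the floor it was 2.63. The day 6 difference does not use the starts, and it was 3.03 (adjusted p = 1.75e-10).

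Factors that drive these genes were higher too. Stat2 held level from EPS cells, at 68.7 and 57 CPM and then 57.2 and 57.5 CPM, but fell from 127 and 128 to 14.4 and 15 CPM from ES cells (log2 2.98 ± 0.13, adjusted p = 3.27e-13). With untransduced starts the Stat2 responses were 1.04 and -1.09, and the interaction was 2.13 (adjusted p = 1.55e-10). Irf9, the DNA-binding part of the complex, and Irf1 were also higher (log2 1.64 and 1.5). The antigen presentation genes were less uniform. B2m, the light chain of class I molecules, was higher (log2 0.75 ± 0.16, adjusted p = 6.17e-04), while Tap1, Psmb8, Psmb9, H2-K1 and H2-D1 were not called, with values from -0.69 to -0.032. Those 5 rose strongly from both origins, for example H2-K1 from 51.7 and 45.9 to 127 and 140.4 CPM and from 26.1 and 19.5 to 65.7 and 62 CPM. Ube2l6, the enzyme that conjugates Isg15, was among the 10 largest positive interactions, at 13.4 and 17.8 CPM on day 6 from EPS against 3.27 and 2.72 CPM (log2 6.33 ± 0.34, adjusted p = 4.45e-12).

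The promoters of Bst2 and Isg15 are shown because they carry the letters GAAANNGAA, a core of the element that STAT and IRF proteins are known to bind. This search was chosen after the interferon result was seen. Matches on either strand are in capitals, overlapping matches run together, and the windows and build are as for Ddx4. Bst2 lies at chr8:71537423-71537722 (minus strand) and Isg15 at chr4:156200769-156201068 (minus strand).
Bst2: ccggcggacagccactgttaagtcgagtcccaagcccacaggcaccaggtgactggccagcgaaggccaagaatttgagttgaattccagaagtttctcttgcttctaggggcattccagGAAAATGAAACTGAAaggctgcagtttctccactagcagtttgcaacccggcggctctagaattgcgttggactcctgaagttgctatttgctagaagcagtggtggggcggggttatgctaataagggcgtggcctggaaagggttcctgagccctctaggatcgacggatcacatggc
Isg15: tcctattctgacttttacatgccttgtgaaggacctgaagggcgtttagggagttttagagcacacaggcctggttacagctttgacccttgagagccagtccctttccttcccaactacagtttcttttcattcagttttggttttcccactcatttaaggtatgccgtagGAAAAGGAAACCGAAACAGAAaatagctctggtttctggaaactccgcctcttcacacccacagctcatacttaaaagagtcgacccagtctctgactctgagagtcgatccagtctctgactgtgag
GAAANNGAA was found in 10 of 22 promoters of the interferon list (45.5%) and in 8.34% of all promoters of tested genes. Of the 10 genes with it 9 were higher, and of the 12 without it 7 were.

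Contractile and cytoskeletal genes driven by serum response factor (SRF) were lower from EPS cells. Of 18 tested members 10 were lower and 1 higher, and 10 were lower with both pairs of starts. Most rose from both origins, 17 from EPS and 17 from ES cells. Tagln, an actin-binding protein, reached 259.6 and 269 CPM from EPS and 1545 and 1450.0 CPM from ES cells, from starts of 1.67 and 0.999 CPM on average (log2 -3.24 ± 0.27, adjusted p = 4.80e-09). Tpm2, a tropomyosin, went from 12.8 and 12.5 to 132 and 129.8 CPM and from 4.12 and 3.46 to 287 and 275 CPM (log2 -2.84 ± 0.14, adjusted p = 1.67e-12). Calponin, encoded by Cnn1, was on day 6 at 7.87 and 7.8 CPM from EPS and 112 and 106 CPM from ES cells (log2 -9.17 ± 0.50, adjusted p = 5.81e-12). Its ES-oeCtrl level was 0 and 0.0678 CPM, under the floor, so the fold is poorly fixed. Ctgf, a target of both SRF and YAP, was at 27.4 and 31.4 against 146 and 139.9 CPM (log2 -3.66 ± 0.18, adjusted p = 1.84e-12). Srf itself was lower in the interaction (log2 -1.13 ± 0.11, adjusted p = 6.56e-08). Acta2, smooth muscle actin, rose from near 0 to 103 and 102 CPM and 863 and 812 CPM. Its interaction was not called (log2 0.30), though on day 6 it differed by -3.02 (adjusted p = 5.16e-16).

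Early neural genes were lower from EPS cells where they were called, 7 of 19 with none higher (5 with both pairs of starts). Tubb3 (chromosome 8, start 123411553, end 123422015), a neuronal tubulin, started level at 62.6 and 66.4 CPM in EPS-shCtrl and 61.8 and 74.6 CPM in ES-oeCtrl. On day 6 it was 5.9 and 5.51 CPM from EPS and 77.5 and 72.7 CPM from ES cells, so it fell from the first and changed little from the second (log2 -3.64 ± 0.15, adjusted p = 1.24e-13). Stmn2, a neuronal microtubule protein, fell from 296 and 340.3 to 134 and 134 CPM and rose from 107 and 102 to 187 and 195 CPM (log2 -2.11 ± 0.10, adjusted p = 1.47e-12). Elavl3, which binds RNA in neurons, and Crmp1 were lower as well (log2 -9.82 and -4.22). Defining neural progenitor genes were low on day 6 in both, with Sox1 at 0.117 and 0.398 CPM and Pax6 at 1.66 and 0.790 CPM on average, and neither was called.

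Several developmental regulators rose from EPS cells, while from ES cells they fell or, for Gata4, showed no called change. Otx2 (chromosome 14, start 48656781, end 48667644), a homeobox factor of the epiblast and forebrain, stood at 0.923 and 0.684 CPM in EPS-shCtrl and 32.1 and 26.8 CPM in ES-oeCtrl. It ended at 22.3 and 24.2 CPM from EPS and 4.73 and 5.13 CPM from ES cells. The order was reversed without overlap (log2 7.42 ± 0.33, adjusted p = 2.96e-13). Gsc, a homeobox gene of the organizer, went from 0.739 and 0.870 to 10.5 and 12.3 CPM from EPS and from 10.8 and 10.9 to 4.57 and 4.22 CPM from ES cells (log2 5.11 ± 0.35, adjusted p = 2.22e-10). Tfap2a, a factor of surface ectoderm and trophoblast, went from 2.52 and 2.24 to 18.1 and 15.8 CPM and from 15 and 13.2 to 9.3 and 7.18 CPM (log2 3.59 ± 0.25, adjusted p = 2.26e-10). Gata4, an endoderm and heart factor, rose from 14.2 and 15 to 46.5 and 49.6 CPM from EPS cells and stood at 11.5 and 13 and then 11.3 and 9.9 CPM in the ES series (log2 1.92 ± 0.18, adjusted p = 2.98e-08). All 4 kept their interaction calls with untransduced starts (log2 3.05, 4.15, 3.0 and 2.97). In that form the responses from ES cells were -1.50, -0.11, -0.71 and 1.155 on the log2 scale. Gsc was thus nearly flat from ES cells there, and Gata4 had a positive value.

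Signalling genes with higher interactions under both pairs of starts included Bmp7, Notch1 and Crabp1. Bmp7, a BMP ligand, reached 55.1 and 54.1 CPM from EPS and 11.9 and 12.2 CPM from ES cells (log2 3.11 ± 0.20, adjusted p = 7.85e-11). Crabp1, which binds retinoic acid in the cytoplasm, was on day 6 at 28.8 and 29.3 against 1.71 and 1.03 CPM (log2 3.86 ± 0.34, adjusted p = 2.63e-08). In the opposite direction, Bmp4 was lower (log2 -3.99 ± 0.18, adjusted p = 6.11e-13) although it stood at 221 and 224 CPM on day 6 from EPS and 111 and 112 CPM from ES cells. Gdf3, a Nodal-related ligand, was lower (log2 -3.53 ± 0.20, adjusted p = 1.46e-11), at 0.768 and 0.888 against 15.6 and 13 CPM on day 6. By list, the BMP pathway had 4 higher and 8 lower of 17 (3 and 4 with both pairs of starts), Nodal and activin 6 and 5 of 15 (3 and 2), and Notch 7 and 5 of 16 (3 and 2). Wnt targets had 4 higher and 8 lower of 16 (3 and 4 with both), retinoic acid 3 and 4 of 16 (3 and 1), and LIF and STAT3 targets 6 and 5 of 14 (4 and 3). In each of these 6 lists calls went both ways. All genes tested had 22.8% higher and 25.9% lower (11.1 and 13.4% with both). The retinoic acid list, at 18.75 and 25%, lay near the first of these pairs.

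Calls among Hox genes depended on the starting cells. Of the 30 tested Hox and Cdx genes 9 were higher and 8 lower, while with untransduced starts 15 were higher and 1 lower (8 and 1 in both forms). Against the construct controls that was 30 and 26.67%, beside 22.8 and 25.9% of all genes tested. The shares of all genes with untransduced starts were 16.1 and 17.9%. HoxC and HoxD genes made up 8 of the 9 higher calls, with Hoxc9 at 3.98 and 2.9 CPM on day 6 from EPS and 1.3 and 1.51 CPM from ES cells (log2 5.59 ± 0.75, adjusted p = 2.98e-06). Hoxd9 went from 0.554 and 0.435 to 17.6 and 17.3 CPM and from 3.01 and 3.26 to 15 and 15.7 CPM (log2 2.83 ± 0.39, adjusted p = 4.44e-06). The HoxA genes Hoxa3, Hoxa5, Hoxa7 and Hoxa10 were lower with the construct controls. All 4 had positive values with untransduced starts, from 0.78 to 1.29. Most Hox transcripts were under 10 CPM in every group, and neighbouring Hox genes overlap in part, so reads on them are hard to divide.

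**Figure D4:**
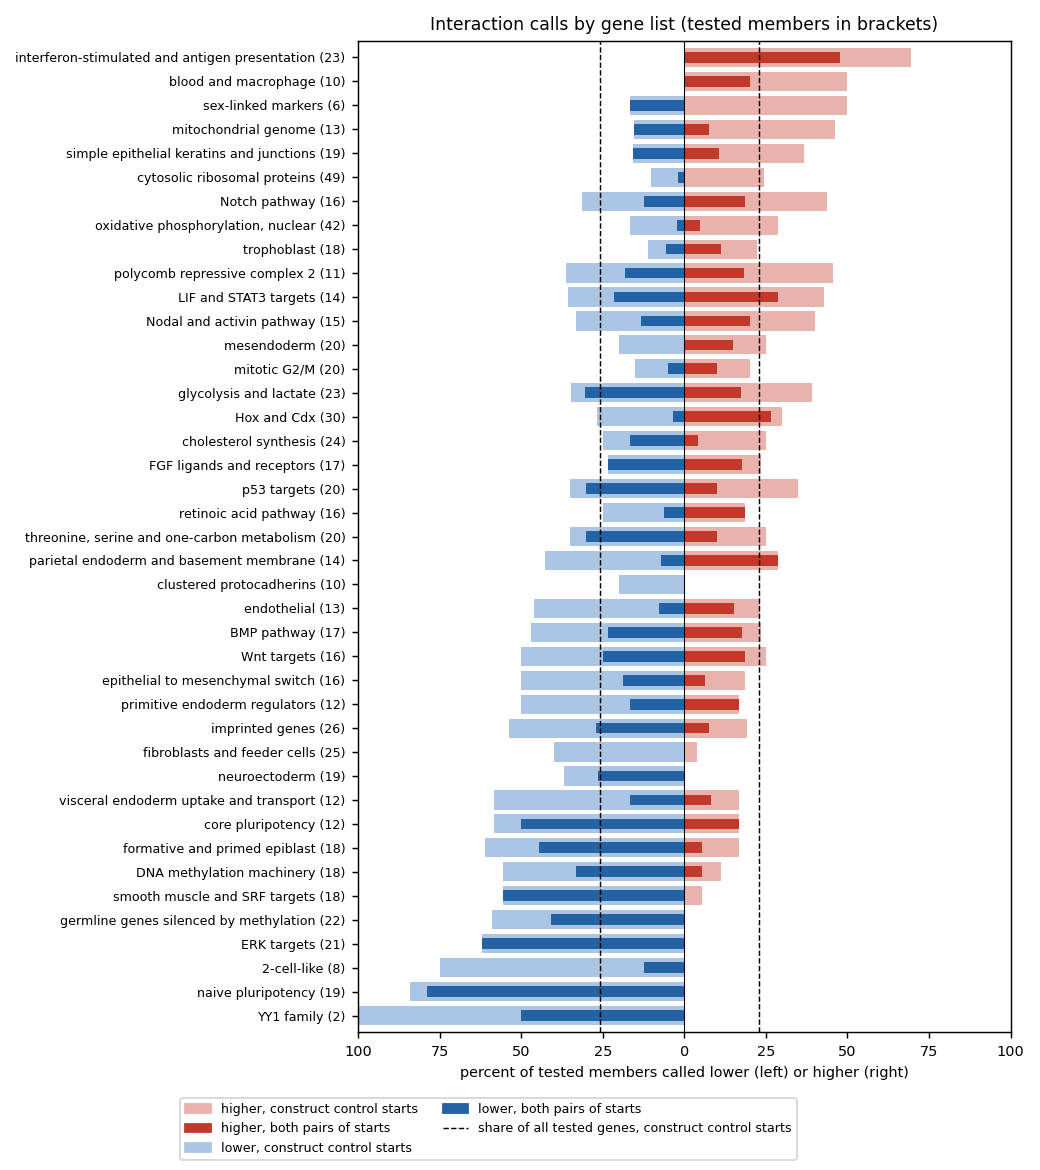
Share of the tested members of each list called higher (right) or lower (left) in the interaction, in percent. Pale bars use the construct controls as starting cells, dark bars count calls made the same way with both pairs of starts, and dashed lines mark the shares of all tested genes, 22.8% higher and 25.9% lower.

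Calls in the extraembryonic and germ layer lists depended on the starting cells. Of 18 trophoblast genes 4 were higher and 2 lower, against 3 and 6 with untransduced starts (2 and 1 in both forms). Gata3, Hand1, Krt8 and Krt18 rose from both origins without a called interaction against the construct controls. Krt8, a keratin of simple epithelia, went from 21.9 and 12.2 to 1520.0 and 1557 CPM from EPS and from 26.1 and 35.4 to 3300.0 and 3211 CPM from ES cells. Elf5 and the placental lactogen and Tpbpa genes of later trophoblast did not pass the filter on low counts. Mesendoderm genes had 5 higher and 4 lower of 20, against 8 and 0 with untransduced starts (3 and 0 in both forms). Brachyury (T) reached 226 and 228 CPM from EPS and 229.7 and 221 CPM from ES cells, level on day 6 after starts of 6.61 and 0.210 CPM on average, which gave it a negative interaction (log2 -4.94 ± 1.15, adjusted p = 0.00646). That call was not made with untransduced starts (log2 -2.22, adjusted p = 0.0557). Eomes, a T-box factor of mesendoderm and trophoblast, rose to 105 and 104 CPM and 70.2 and 70.7 CPM and was not called (log2 0.29 ± 0.17, adjusted p = 0.182). With untransduced starts it was higher (log2 1.02, adjusted p = 0.00237). Visceral endoderm genes had 2 higher and 7 lower of 12, but with both pairs of starts only 1 and 2. Lrp2 (chromosome 2, start 69424335, end 69586029), the endocytic receptor megalin, reached 117 and 111 CPM from EPS and 650.3 and 671 CPM from ES cells, from 17.4 and 18.9 and 3.85 and 4.95 CPM (log2 -4.57 ± 0.16, adjusted p = 7.47e-15). Afp, Ttr and Apoa1, defining genes of that tissue, did not pass the filter.

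The primitive endoderm factors depended on the starting cells, with 2 higher and 6 lower of 12, against 7 and 2 with untransduced starts (2 and 2 in both forms). Gata6 stood at 25 and 14 CPM in EPS-shCtrl and 0.559 and 0.746 CPM in ES-oeCtrl, then at 15 and 16.9 and 6.39 and 7 CPM on day 6. Against the construct controls its interaction was negative (log2 -3.63 ± 0.41, adjusted p = 3.13e-07). Untransduced EPS cells held 0.738, 0.940 and 2.38 CPM and untransduced ES cells 1.47, 1.94 and 2.76 CPM, and with these the value was positive (log2 1.87, adjusted p = 0.00303). Sox17, the endoderm HMG factor, was not called against the construct controls (log2 -0.41 ± 0.42, adjusted p = 0.455) and was higher with untransduced starts (log2 1.86, adjusted p = 0.0236). It ended at 12.7 and 9.39 CPM from EPS and 2.34 and 2.47 CPM from ES cells. Pdgfra, a receptor of primitive endoderm and mesenchyme, was likewise higher on day 6 from EPS cells (log2 2.94, adjusted p = 5.37e-13), with interactions of -0.93 and 3.44 in the 2 forms.

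Fibroblast genes reversed as a list. With the construct controls 10 of 25 were lower and 1 higher. With untransduced starts 19 were higher and 0 lower, and 7 genes were called in opposite directions. Over all genes tested with those starts 16.1% were higher and 17.9% lower. The summed level was 1772 and 1682 CPM in EPS-shCtrl and 2298 and 2810.1 CPM in ES-oeCtrl, against 2050.0, 1884 and 3397 CPM in untransduced EPS and 4931, 5260.0 and 8396 CPM in untransduced ES cells. On day 6 it was 5745 and 5889 CPM from EPS and 5331 and 5247 CPM from ES cells. Fibronectin (Fn1), which these stem cells also express, makes up most of the sums in the construct controls, at 1512 and 1401 and 2249 and 2769 CPM. Type I collagen was nearly absent there, with Col1a1 at 0.649 and 1.23 CPM on average, and it was at 171 and 172 and 325 and 319.6 CPM on day 6. The part of feeder cells in these results was not tested.

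Epithelial genes also depended on the starting cells. Of 19 keratin and junction genes 7 were higher and 3 lower, against 2 and 11 with untransduced starts (2 and 3 in both forms). Cldn4 and Cldn7, tight junction claudins, and Krt7 had positive values with the construct controls (log2 1.73, 2.22 and 4.95) and negative ones with untransduced starts (log2 -1.41, -1.08 and -0.60). Cldn4 stood at 41.8 and 30.8 CPM in EPS-shCtrl and 252 and 237 CPM in ES-oeCtrl, and at 337 and 340.1 and 707 and 668 CPM on day 6. In untransduced cells it stood at 606, 593 and 408 CPM (EPS) and 390.4, 459.9 and 377 CPM (ES). The direction thus followed the level in the starting cells, since the day 6 values are the same in both forms. Ccnd2, a cyclin of the G1 phase, moved further, -8.72 against the construct controls and 1.33 against untransduced cells. It had 0.140 and 0 CPM in ES-oeCtrl and 10.9, 11.3 and 30.5 CPM in untransduced ES cells. The Y-linked genes Eif2s3y, Uty and Ddx3y reversed as well, from 3.84, 2.77 and 1.77 to -0.83, -1.18 and -1.3.

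**Figure D5:**
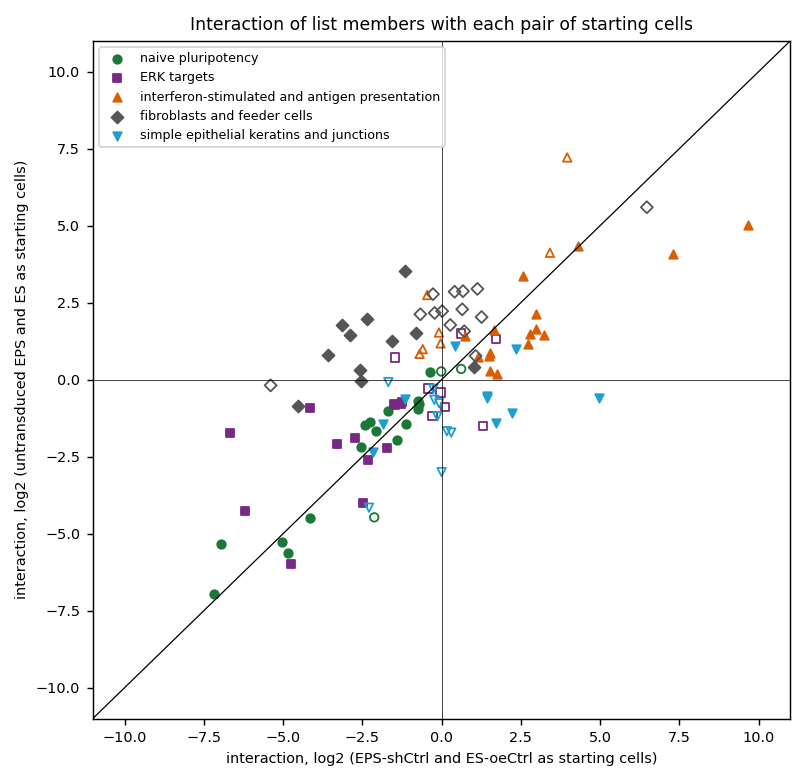
Interaction (log2) of the members of 5 lists with the construct controls as starting cells (horizontal) and with untransduced cells (vertical), with filled points called in the first and a line of equal values. Naive, ERK and interferon genes lie mostly in the quadrants of equal sign, while fibroblast genes lie mostly above 0 on the vertical axis and several keratin and junction genes below it.

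Imprinted genes were lower more often than higher. Of 26 tested members 14 were lower and 5 higher, with 7 and 2 for both pairs of starts. H19, a maternally expressed noncoding RNA, reached 591 and 603 CPM from EPS and 468 and 446 CPM from ES cells, from 3.63 and 2.49 and 0 and 0.0678 CPM (log2 -5.8 ± 0.58, adjusted p = 5.39e-08 against log2 1.04, adjusted p = 0.316 with untransduced starts). Peg10, a retrotransposon-derived paternally expressed gene, reached 2378 and 2394 CPM from EPS and 7901 and 8058 CPM from ES cells, and it stayed lower in both forms (log2 -5.21 ± 0.77, adjusted p = 5.25e-04 and log2 -2.85, adjusted p = 8.16e-04). Zdbf2, also paternally expressed, fell from 193 and 195 to 85.1 and 82 CPM from EPS and rose from 52.1 and 87.5 to 241 and 256 CPM from ES cells (log2 -3.04 ± 0.23, adjusted p = 3.05e-07, against log2 -1.22, adjusted p = 0.00691 with untransduced starts). Igf2 differed most on day 6 itself, at 1393 and 1425 CPM from EPS and 255 and 248 CPM from ES cells (day 6 difference, log2 2.49, adjusted p = 4.78e-15).

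Metabolic lists held calls in both directions, with a few large differences. Tdh, threonine dehydrogenase of mouse pluripotent cells, fell from 323 and 480.1 to 0 and 0.234 CPM from EPS and from 251 and 271 to 11 and 12.9 CPM from ES cells (log2 -7.18 ± 0.58, adjusted p = 9.50e-07). Gldc, of the glycine cleavage system, fell from 360.4 and 471 to 47.8 and 48.6 CPM and rose from 56.4 and 39.7 to 119.9 and 112 CPM (log2 -4.38 ± 0.19, adjusted p = 4.39e-11). Phgdh, the first enzyme of serine synthesis, did likewise on a smaller scale (log2 -1.18 ± 0.12, adjusted p = 5.09e-08). In the list of threonine, serine and one-carbon metabolism 7 of 20 were lower and 5 higher (6 and 2 with both pairs of starts). Glycolysis had 9 higher and 8 lower of 23 (4 and 7 with both pairs of starts). Cholesterol synthesis had 6 and 6 of 24 (1 and 4 with both), and nuclear genes of oxidative phosphorylation 12 and 7 of 42 (2 and 1 with both). Ribosomal protein genes had 12 higher and 5 lower of 49, of which 0 and 1 held with both pairs of starts. G2/M genes had 4 and 3 of 20 (2 and 1 with both), and genes of the mitochondrial genome 6 and 2 of 13 (1 and 2 with both). Shares over all genes tested were 22.8% higher and 25.9% lower, or 11.1 and 13.4% with both. Cholesterol synthesis, at 25% each way, lay near the first of these pairs.

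Targets of p53 had 7 higher and 7 lower of 20, against 2 and 13 with untransduced starts (2 and 6 in both forms). Of these targets 3 were called in opposite directions. For this and the next lists, the shares over all genes were 22.8% higher and 25.9% lower, and 16.1 and 17.9% with untransduced starts. Polycomb repressive complex 2 had 5 and 4 of 11 (2 and 2 with both), with Ezh1 higher (log2 1.51 ± 0.15, adjusted p = 5.53e-08) and Eed, a core subunit, lower (log2 -0.97 ± 0.10, adjusted p = 1.22e-07). Basement membrane genes had 4 higher and 6 lower of 14, against 5 and 2 with untransduced starts (4 and 1 in both forms). Genes of the epithelial to mesenchymal switch had 3 and 8 of 16, against 6 and 3 (1 and 3 in both forms). Endothelial genes had 3 and 6 of 13 (2 and 1 in both forms), and blood and macrophage genes 5 and 0 of 10, with 2 higher in both forms. Of those 10 genes 5 had a group without counts, and the list median of 3.20 became 2.17 at the floor. On day 6 the list sum was 28.9 and 28.8 CPM from EPS and 24.9 and 25.3 CPM from ES cells. The pan-leukocyte gene Ptprc did not pass the filter. Clustered protocadherins had 0 and 2 of the 10 that passed it, against 4 and 0 with untransduced starts.

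Yy1, the subject of the series, changed little. It stood at 131 and 142 CPM in EPS-shCtrl and 118 and 114 CPM on day 6, and at 122 and 128 CPM in ES-oeCtrl and 124 and 129 CPM on day 6. The interaction passed the threshold narrowly (log2 -0.25 ± 0.10, adjusted p = 0.0404) and did not pass with untransduced starts (log2 -0.15, adjusted p = 0.334). Cdx2, a caudal factor of trophoblast and hindgut, had no count in ES-oeCtrl and 0.431 and 3.29 CPM in EPS-shCtrl, and reached 39.4 and 37.9 and 32.8 and 31.3 CPM on day 6. Its fitted interaction of -7.67 was -2.9 with the empty group at the floor and was not called with untransduced starts (log2 -0.58, adjusted p = 0.59). Xist was not called (log2 -3.96 ± 2.23, adjusted p = 0.18), with 25.3 and 4.85 CPM in EPS-shCtrl and 1.19 and 2.1 CPM in ES-oeCtrl. Of 6 sex-linked markers 3 were higher and 1 lower, against 0 and 5 with untransduced starts. Both tested members of the YY1 family were lower, and 1 of them with untransduced starts.

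The remaining largest interactions came from genes of varied roles. On the positive side were Aplnr, the apelin receptor, Copz2, a coat protein of transport vesicles, Chit1, a chitinase, Mal, a membrane proteolipid, Pkd2l1, a cation channel, Pappa, a metalloproteinase that cuts IGF-binding proteins, and Sprr2a3, a cornified envelope protein. Aplnr reached 209.9 and 206 CPM on day 6 from EPS and 16.7 and 16.6 CPM from ES cells. No count was found in EPS-shCtrl, so the value of 8.21 becomes 3.56 at the floor, and with untransduced starts it was not called (log2 2.92, adjusted p = 0.351). Copz2 went from 0.862 and 0.373 to 6.14 and 6.68 CPM from EPS and from 51 and 43.7 to 2.55 and 2.47 CPM from ES cells (log2 7.59 ± 0.35, adjusted p = 6.18e-13). On the negative side were Halr1, a noncoding RNA beside the HoxA cluster, Vrtn, Zfp36l3, Ptgs1, Aoah and D1Pas1. Halr1 fell from 54.3 and 52.8 to 0.0960 and 0.140 CPM from EPS cells and stood at 0.699 and 0.203 and then 0.416 and 0.422 CPM in the ES series (log2 -8.64 ± 0.85, adjusted p = 4.47e-08). Untransduced EPS cells held only 0.307, 0.166 and 0.488 CPM, and with untransduced starts the interaction was smaller (log2 -3.29, adjusted p = 0.0164). Vrtn, Zfp36l3 and Ptgs1 had no count in ES-oeCtrl, and none of the 3 was called with untransduced starts.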

How the data were processed

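RNA-seq counts of mouse ES and EPS cells were used as the authors deposited them: whole-number counts per gene symbol, with no normalization, 1 table per library. The submitters' processing notes list Bowtie2 2.3.2, CASAVA, GRCm38.p6 and mm10 without giving roles. The counting tool and its strand setting are not given in the sources used here, so overlapping and antisense genes, and near-identical copies such as Zscan4, Ifitm, H2 and Eif1a genes, cannot be told apart. Summary lines that name no gene were dropped. They held 5.61 to 8.44% reads outside genes, 4.06 to 5.32% ambiguous reads and 5.45 to 6.66% with several alignments.

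Counts were fitted with edgeR 4.0.16 (R 4.3.3, limma 3.58.1), with TMM factors, filterByExpr and the robust quasi-likelihood F-test, in a model of 16 libraries in 8 groups with 8 residual degrees of freedom. All adjusted p values for single genes come from this edgeR fit or the same fit with all 22 libraries, used for untransduced starts. CPM use TMM-scaled library sizes. The fit was tested on simulated data. Alternatives were other sets of libraries, other starting cells, RLE factors, library totals, other filters, DESeq2 1.42.0, a block and leaving out each library. Replicate numbers were not treated as pairs in the main fit. Correlations of deviations between groups lay between -0.0748 and 0.0764, which shows little shared deviation but not how the replicates were made. List medians use the fitted values unless the floor is named. Where it is named, a group without counts was set to 3 counts per library.

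The comparison and the 41 gene lists were chosen with earlier results of these data known. Genes were named by a rule: the 10 largest interactions in each direction among called genes of at least 2-fold and 5 CPM whose responses stay apart, the 3 called genes with the lowest p in every list (fewer where a list had fewer), and 12 fixed genes, 130 in all. A few list members are not reported here and are left out of the list counts, medians and sums, whichever way they moved. Other list members given with values were chosen after their values were seen. Promoters came from RefSeq (GRCm38.p6), which held 11676 of the 17207 tested genes. The 41 samples of other assays were not used here.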

Additional observations from a re-analysis of the deposited data

Results flagged for a closer look

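The response to F4H differed between the EPS and ES control series, by the test of the difference itself, for 8376 genes. With untransduced starts 4208 of these calls (50.2%) were made in the same direction. Origin goes with control construct and starting medium in these groups, so their parts cannot be told apart. Among the named genes with an interaction of at least 16-fold, 12 moved in opposite directions from the construct controls in every pair of libraries, were called in both responses and kept the call of the interaction with untransduced starts. Those that rose from EPS and fell from ES cells were Chit1 (log2 7.86), Copz2 (7.59), Otx2 (7.42), Ube2l6 (6.33), Gsc (5.11), Aldh1a3, a retinaldehyde dehydrogenase (4.61), and Fgf10 (4.06). Those that fell from EPS and rose from ES cells were Dnmt3l (-10.18), Spry4 (-6.21), Ddx4 (-4.79), Gldc (-4.38) and Etv4 (-4.15). With untransduced starts the interaction was smaller in size for all 12, and it was 2.13 for Chit1, 1.33 for Aldh1a3 and -0.93 for Etv4. The opposite directions did not hold there for Chit1 (log2 -0.21 from EPS and -2.34 from ES cells), for Aldh1a3 (-0.28 and -1.61) or for Fgf10 (3.14 and 0.16). For other genes the signs stayed opposite although a response was small. Examples are Copz2 from EPS cells (log2 0.13) and Gldc, Gsc and Dnmt3l from ES cells (log2 0.014, -0.11 and 0.28). All 12 adjusted p values of these interactions are from edgeR's quasi-likelihood test, and the highest was 6.22e-07.

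A signal also appeared in libraries outside the comparison. Xist, the noncoding RNA of X inactivation, averaged 479 CPM in the 2 EPS-shYy1-F4H-D6 libraries, against 0.480 and 0.234 CPM in EPS-shCtrl-F4H-D6. The same libraries held a mean sum of 179 CPM of Y-linked genes, against 19.4 and 17.6 CPM in EPS-shCtrl-F4H-D6. The Y-linked sum was already 155.2 and 160.2 CPM in the EPS-shYy1 starting cells, where Xist stood at 11.3 and 10.3 CPM. The EPS-shYy1 libraries of both stages entered the comparison only through the filter on low counts, the TMM factors and the estimate of the spread. With the 8 compared libraries alone 7447 genes were called.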

How the results depend on the processing

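No count of called genes left the range of 1.5 times its value under any of the 18 alternatives. Leaving out each of the 8 libraries in turn gave 7406 to 9159 genes called for the interaction, 3430 to 4448 higher, 3899 to 4711 lower and 4040 to 4824 of at least 2-fold. The replicate block gave 8357 calls. Between 84.3 and 99.1% of the 8376 calls were kept in direction by the alternatives other than untransduced starts, which kept 50.2%. Scaling by library totals moved the median of all genes from -0.049 to 0.093 and the share of higher among called genes from 46.8 to 55.7%. Of the 130 named genes 82 kept direction and side of the threshold in every alternative.

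With untransduced starting cells 18 named genes changed sign: Ccnd2 (1.33), Grb10 (0.48), H19 (1.04), Gata6 (1.87), Apoe (-0.040), Krt7 (-0.60), Fstl1 (0.80), Fbn1 (1.47), Cldn7 (-1.08), Cldn4 (-1.41), Tgfb1 (-0.087), Cdx1 (0.024), Notch3 (-0.97), Ldhb (-1.32), Eif2s3y (-0.83), Uty (-1.18), Ddx3y (-1.30) and Sox17 (1.86). No other alternative reversed a named gene. The day 6 libraries are the same in both forms, and why the starting libraries differ was not tested. Without the first ES-oeCtrl library Aplnr, Isg15, Sprr2a3 and Pappa were no longer called, and without the second EPS-shCtrl-F4H-D6 library Pkd2l1 was not. Yy1 lost its call in 12 alternatives and Eif1a in 6. Xist was called with DESeq2 and without either EPS-shCtrl library. Genes below the floor of 0.151 to 0.206 CPM in a group have no reliable fold at this depth.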
